A study of Homo sapiens with 4 samples.

Results

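The HIF pathway and its lactate-linked neighbours were followed through the 3′ ends of their mRNAs in 2 esophageal squamous cell carcinoma (ESCC) cell lines. The 10 genes were HIF1A, EGLN1, EGLN2, EGLN3, HIF1AN, VHL, VEGFA, CA9, NDRG1 and NDRG3. A PAS cluster (PAC), a group of neighbouring poly(A) sites (PAS), was taken as belonging to a gene when its dominant site lay within the annotated span of that gene on the same strand. This gave 17 of the 17627 PACs in the series. Of these, 16 are the genes' own, and 9 of the 10 genes had at least 1. The single PAC within the span of EGLN3 lies in the 3′ UTR of another gene, SPTSSA, and EGLN3 had no PAC of its own in any library.

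PAS-seq, a method that reads the 3′ ends of poly(A)-tailed RNA, was done on KYSE30 and TE-1 cells, both established human ESCC lines. In each line 1 library came from cells exposed for 24 h to 20 mM l-lactate, and the other from control cells that the labels give as treated with PBS. The cell line field of the control samples names KYSE32 and TE-3, whereas their titles and the study's methods have KYSE30 and TE-1, and these are followed here. No genotype or further treatment is given for any library. Because a line has 1 library per condition, a line has no spread between replicates, and intervals within a line cover counting error only.

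HIF-1 is a transcription factor whose alpha subunit, encoded by HIF1A, is made continuously and destroyed while oxygen is present. The prolyl hydroxylases encoded by EGLN1, EGLN2 and EGLN3 mark the subunit, and VHL, the recognition subunit of a ubiquitin ligase, then sends it for degradation, while HIF1AN hydroxylates an asparagine and keeps coactivators away. VEGFA, an angiogenic growth factor, CA9, a membrane carbonic anhydrase that acidifies the space around the cell, and NDRG1, a stress-response gene, are classical HIF targets. NDRG3 is known as a protein that EGLN1 marks for destruction in oxygen and that lactate binds and stabilises. Much of this control acts on proteins, which PAS-seq does not measure.

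All positions are on GRCh38. HIF1A lies on chromosome 14 (61695513 to 61748259, plus strand), and its PAC sits in exon 15, in the 3′ UTR, 1174 nt past the stop codon. EGLN1 lies on chromosome 1 (231363751 to 231422287, minus strand) with PACs 79 and 2653 nt past the stop codon in exon 5. EGLN2 lies on chromosome 19 (40798996 to 40808434, plus strand) with a PAC 568 nt past the stop codon in exon 6. HIF1AN lies on chromosome 10 (100529072 to 100559998, plus strand), and its last exon, exon 8, holds PACs 703, 1869 and 9278 nt past the stop codon in a 3′ UTR of 11861 nt. VHL lies on chromosome 3 (10141778 to 10153667, plus strand) with PACs 850 and 3610 nt past the stop codon in exon 3. VEGFA lies on chromosome 6 (43770184 to 43786487, plus strand) with PACs 1275 and 1918 nt past the stop codon in exon 8. CA9 lies on chromosome 9 (35673928 to 35681159, plus strand) with a PAC 126 nt past the stop codon in exon 11. NDRG1 lies on chromosome 8 (133237175 to 133302022, minus strand) with a PAC 1703 nt past the stop codon in exon 16. NDRG3 lies on chromosome 20 (36651766 to 36746090, minus strand) with PACs 310 and 1749 nt past the stop codon in exon 16 and a further PAC in an intron of its canonical transcript, upstream of that exon.

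Every PAC outside that intron is therefore in the 3′ UTR of the last exon. The PACs of HIF1A, EGLN2 and NDRG1 and the proximal PAC of EGLN1 also lie within an unnamed gene on the same strand, so their tags could in part come from it.

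The 30 nt that end at the dominant site are shown for the genes with more than 1 PAC, whose ends were compared below, and for HIF1A, the most abundant member, and CA9, listed in TE-1 cells alone. The site is the dominant one of the library in which the PAC has its highest TPM, which for HIF1AN middle is the KYSE30 control and for VEGFA distal the TE-1 library with l-lactate. They are from the reference genome, 5′ to 3′ on the strand of the gene. Capitals mark a poly(A) signal hexamer, AATAAA or ATTAAA or a less frequent variant.
HIF1A, chr14:61748230-61748259: catcaAATAAAcatcttctgtggaccaggc
EGLN1 proximal, chr1:231366332-231366361: ttgttaacttgtgaatacgAATAAAtggga
EGLN1 distal, chr1:231363758-231363787: ctaATTAAAaagatgtataaatgttgttga
HIF1AN proximal, chr10:100548811-100548840: gctcaagccataCATAAAaggaccttggga
HIF1AN middle, chr10:100549977-100550006: ttcaAATATAgtcaatgctgggaaatgtga
HIF1AN distal, chr10:100557386-100557415: actgagcactaTATAAAtgctggttgttga
VHL proximal, chr3:10150786-10150815: tagtattaatggacaaataagtttttgcta
VHL distal, chr3:10153546-10153575: cttgtgaatgtATTAAAtatatcgctctta
VEGFA proximal, chr6:43785808-43785837: ttttaattagaaATTAAAacagttaattta
VEGFA distal, chr6:43786451-43786480: agcattttgtATTAAAgaatttaattctga
CA9, chr9:35681122-35681151: tgccaagaaattttttaaAATAAAtattta
NDRG3 intronic, chr20:36654936-36654965: ggaccttaaAATAAAattttatccctggct
NDRG3 middle, chr20:36653210-36653239: tatgtatcagataagattctttgatcccga
NDRG3 distal, chr20:36651771-36651800: ttaAATAAAgctgcatatgtctcattgtta
None of the 3 HIF1AN PACs has AATAAA or ATTAAA in the 50 nt before its site, and VHL proximal and NDRG3 middle show no hexamer of the list. AATAAA occurred within 50 nt of 7 of the 16 PACs (43.8%), beside 66.4% of the 17621 PACs of the series on sequences of the genome file, and AATAAA or ATTAAA in 11 (68.8%), beside 83.1%. TGTA, the DNA spelling of the UGUA motif bound by NUDT21, occurred in the 100 nt before 9 of the 16 sites (56.2%), beside 57.0% in the series. In HIF1AN it was present before the middle and distal sites and not before the proximal one, which describes letters and not a binding site. These searches were on the strand of the gene only. The 10 nt after EGLN1 proximal and CA9 were A-rich, with a run of 6 A or 7 A in all, as after 1.62% of PACs. An oligo(dT) primer can anneal to such stretches inside a transcript, and whether it did so here was not tested.

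The libraries held 7174991 to 10393799 tags, worked out from the step between TPM values, and the TE-1 control was the deepest. TPM here are tags of a PAC scaled to the total tags of its library. Each tag is a read that marks a transcript end, so levels of different genes are compared without a length correction. The level of a gene is the sum over its listed PACs. The study amplified its libraries and describes no step that tells copies of a molecule apart. Tags may therefore include copies, and counting intervals, which treat each tag as separate, may be too narrow. The lowest listed TPM was 1.06 to 1.12, but a PAC with a single position was listed only from 3.07 to 3.10 TPM, so a PAC that is not listed may have lain anywhere under that limit. Of 12 epithelial markers 8 were listed. Their levels summed to 3540 and 3730 TPM in KYSE30 cells (control, then l-lactate) and to 1680 and 1560 TPM in TE-1 cells. The largest part of each sum was KRT8, at 2150 and 2230 TPM in KYSE30 cells and 1000 and 969 TPM in TE-1 cells. KRT8, KRT18 and EPCAM are not particular to squamous epithelium, so the sums do not measure a squamous state. KRT5, KRT14, DSG3 and PKP1 were listed in no library, KRT6A, TP63 and SOX2 in KYSE30 cells only, and KRT17 in TE-1 cells only. Of other cell types, 2 of 5 fibroblast markers reached at most 12.5 TPM in sum, in TE-1 cells only, 1 of 3 endothelial markers (CDH5) 11.2 to 16.2 TPM, in KYSE30 cells only, and 1 of 5 leukocyte markers (CD68) 3.48 to 15.2 TPM. The part of these marker differences in the values below was not tested.

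The 2 lines carried the pathway at different levels. HIF1A and HIF1AN were lower in TE-1 than in KYSE30 cells, while EGLN1, VHL, VEGFA, CA9 and NDRG1 were higher. EGLN2 and NDRG3 did not pass the test. The test was limma on log2(TPM + 1) over all 4 libraries with line and treatment as terms, adjusted over 10472 genes. It has 1 residual degree of freedom, how far the l-lactate difference in TE-1 cells departs from that in KYSE30 cells. That departure mixes any response of a single line with the spread between single cultures. Most of the variance estimate is shared over all genes (8.106 prior degrees of freedom). The p-values therefore do not rest on the spread between replicates of a gene. In this fit 36.7% of all genes were higher in TE-1 cells and 37.8% lower at an adjusted p of at most 0.05. The 5 member genes called higher and the 2 called lower, of 9, are shares to be read against that background. In RNA from whole cultures, fewer cells that carry a transcript and less of it in each cell cannot be told apart.

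HIF1A had the highest level of the 9 genes in every library, at 222 TPM in the KYSE30 control, 274 TPM with l-lactate, 132 TPM in the TE-1 control and 172 TPM with l-lactate. In the TE-1 control its lead over NDRG1 and EGLN1 was within counting error. Both TE-1 libraries lay below both KYSE30 libraries, by a fitted log2 difference of -0.70 ± 0.07 (SE, limma adjusted p = 1.42e-05). It stood above 88.1% to 94.9% of the genes tested.

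EGLN1, the main oxygen sensor of the 3 hydroxylases, measured 54.0 and 56.4 TPM in KYSE30 cells and 130 and 114 TPM in TE-1 cells (control, then l-lactate). The line difference was 1.12 ± 0.09 on the log2 scale (SE, limma adjusted p = 4.07e-06). In the TE-1 control EGLN1, NDRG1 and HIF1A did not differ beyond counting error, whereas in both KYSE30 libraries HIF1A lay far above EGLN1.

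EGLN2, a nuclear hydroxylase, held 33.0, 33.0, 38.2 and 35.2 TPM in the same order of libraries. Its line difference of 0.15 ± 0.11 on the log2 scale (SE) did not pass the limma test (adjusted p = 0.267). EGLN3, the hydroxylase best known as a HIF target itself, was listed at no PAC. The PAC within its span, at chr14:34434178, held 21.0, 23.8, 21.2 and 18.1 TPM and is assigned to SPTSSA, a subunit of serine palmitoyltransferase. The annotated span of EGLN3 reaches this far (33924227 to 34462774) through a long transcript, while its canonical transcript covers 33924227 to 33951074.

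HIF1AN measured 39.2 and 39.4 TPM in KYSE30 cells and 19.6 and 19.5 TPM in TE-1 cells, a log2 difference of -0.97 ± 0.12 (SE, limma adjusted p = 6.37e-05). VHL went the other way, with 21.4 and 20.6 TPM in KYSE30 cells and 34.5 and 37.0 TPM in TE-1 cells (0.74 ± 0.13, SE, limma adjusted p = 0.000483). For both genes the libraries of a line lay close together and the lines did not overlap.

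VEGFA was the least abundant gene listed in KYSE30 cells, at 4.04 TPM (30 tags) in the control and 4.74 TPM (34 tags) with l-lactate, and it reached 14.9 and 21.7 TPM in TE-1 cells. The log2 difference between lines was 1.82 ± 0.19 (SE, limma adjusted p = 1.94e-05). If the VEGFA PAC that was not listed in KYSE30 cells had stood just under the listing limit, VEGFA would have held at most 7.14 and 7.8 TPM there, and TE-1 cells would still have exceeded it 2.09-fold in controls and 2.78-fold with l-lactate. CA9 was not listed in either KYSE30 library and held 10.9 TPM (113 tags) and 13.5 TPM (114 tags) in TE-1 cells. All CA9 tags were at a single position, for which the KYSE30 libraries list values from 3.10 and 3.07 TPM. Its fitted log2 difference of 3.71 ± 0.26 (SE, limma adjusted p = 1.21e-06) takes the KYSE30 values as 0 and depends on the pseudocount, so it is not a fold.

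NDRG1 measured 64.4 and 73.9 TPM in KYSE30 cells and 131 and 132 TPM in TE-1 cells, 0.92 ± 0.09 higher in TE-1 cells on the log2 scale (SE, limma adjusted p = 8.84e-06). NDRG3 held 39.3, 52.3, 52.4 and 54.1 TPM, so that the KYSE30 control stood below the other 3 libraries. Its line difference of 0.23 ± 0.12 (SE) did not pass the limma test (adjusted p = 0.102). Among neighbours in the order of levels, NDRG3, HIF1AN and EGLN2 in the KYSE30 control, and HIF1AN, VEGFA and CA9 in the TE-1 control, had counting intervals that overlapped from each to the next.

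**Figure D1:**
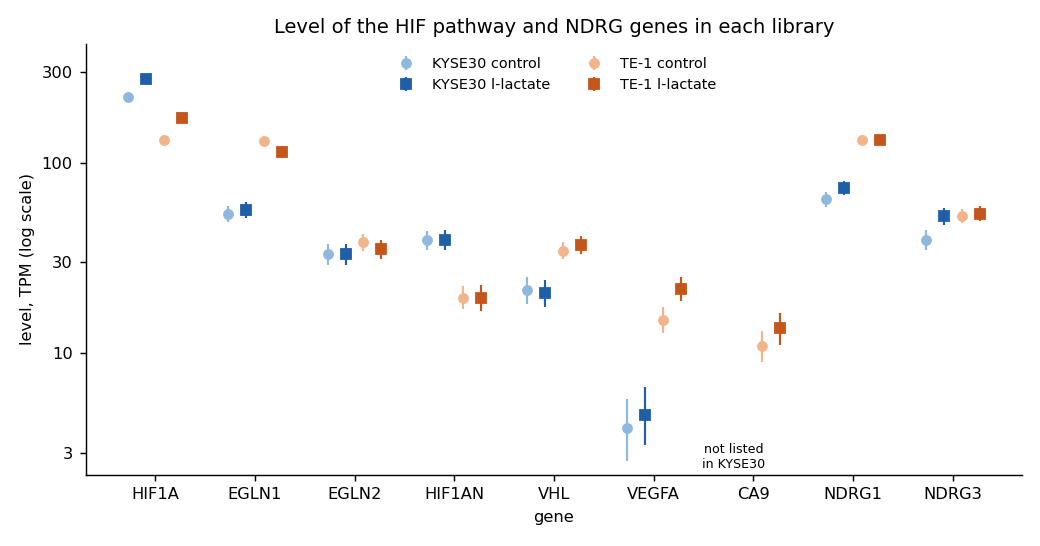
Level in TPM (log axis) of the 9 genes with a PAC of their own, with 1 point per library and 95% Poisson intervals that cover counting error only. HIF1A has the highest point in all 4 libraries (132 to 274 TPM), but in the TE-1 control its interval overlaps those of NDRG1 and EGLN1. The TE-1 points of EGLN1, VHL, VEGFA and NDRG1 lie above those of KYSE30, those of HIF1A and HIF1AN lie below, and CA9 has points in TE-1 cells alone.

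The question of the design was what l-lactate did to these transcripts. No member gene moved by 1.5-fold or more in a line where it was listed. HIF1A was higher with l-lactate in both lines, VEGFA in TE-1 cells, and NDRG3 and NDRG1 in KYSE30 cells, each by an amount beyond counting error, and EGLN1 was lower in TE-1 cells. Over all genes, 2.55% were higher by 1.5-fold or more in KYSE30 cells and 2.88% lower, and in TE-1 cells 3.23% were higher and 2.22% lower. The 0 of 9 member genes called in each direction is read against these shares. The 9 include CA9, which was not listed in KYSE30 cells and so was measured in TE-1 cells only.

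HIF1A with l-lactate was 1.24-fold its control in KYSE30 cells (95% counting interval 1.16 to 1.32) and 1.3-fold in TE-1 cells (1.21 to 1.4). On the log2(TPM + 1) scale the differences were 0.31 and 0.38, and 173 of the other genes tested (1.65%) were at least that much higher in both lines. Over both lines the fitted difference was 0.34 on the log2 scale, and its limma adjusted p = 0.346 did not pass the threshold. With a pseudocount of 5 in place of 1, limma gave an adjusted p = 0.0037 for HIF1A, while the other 7 alternatives gave 0.233 to 0.801, so the call rests on that setting.

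In the limma test over both lines, 0.0% of genes were called higher with l-lactate and 0.0% lower. The number with an unadjusted p under 0.05 was 1021 (9.75%), and the smallest adjusted p of any gene was 0.0677. Among the member genes HIF1A was the only one with an unadjusted limma p under 0.05, and the limma adjusted p of NDRG3 was 0.577 and that of VEGFA 0.604.

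VEGFA with l-lactate was 1.46-fold its control in TE-1 cells (1.17 to 1.82), and 4.21% of genes had a larger log2 difference there. In KYSE30 cells the ratio was 1.17 with an interval of 0.697 to 1.98, which at 30 and 34 tags includes 1 and also the TE-1 ratio. CA9 was 1.24-fold its control in TE-1 cells (0.946 to 1.62), a difference not detectable at this depth, and has no ratio in KYSE30 cells.

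NDRG3 was 1.33-fold its control in KYSE30 cells (1.14 to 1.55) and 1.03-fold in TE-1 cells (0.909 to 1.17). NDRG1 was 1.15-fold its control in KYSE30 cells (1.01 to 1.3) and 1.01-fold in TE-1 cells (0.935 to 1.1). Whether the l-lactate difference of either gene differs between the lines was not tested, since a line has 1 library per condition.

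EGLN1 was 0.877-fold its control in TE-1 cells (0.807 to 0.953) and 1.05-fold in KYSE30 cells (0.908 to 1.2). EGLN2 (1 and 0.921), HIF1AN (1.01 and 0.993) and VHL (0.963 and 1.07, KYSE30 then TE-1) had intervals that included 1 in both lines. The widest of these, for VHL in KYSE30 cells, ran from 0.765 to 1.21. Changes inside these bounds cannot be seen at this depth.

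**Figure D2:**
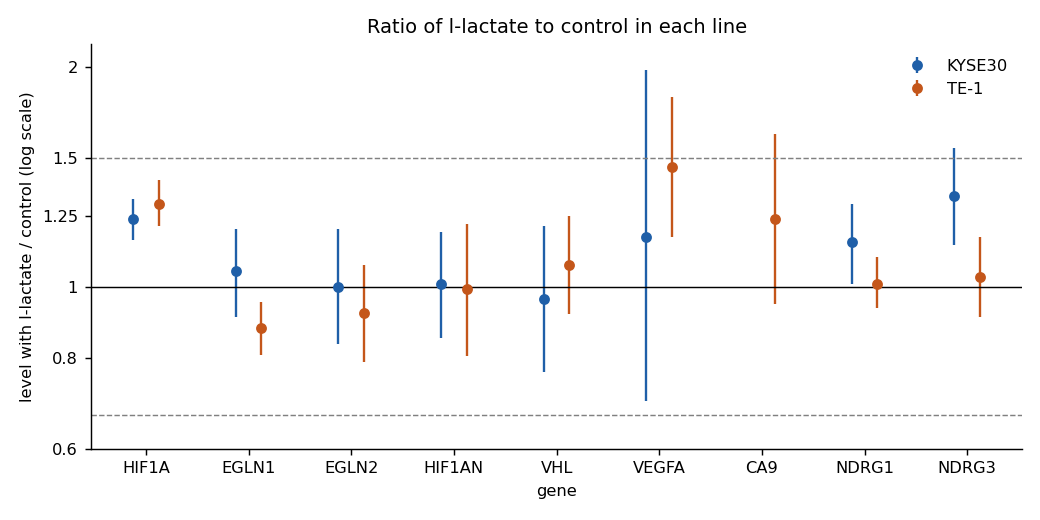
Level with l-lactate divided by the control level (log axis) for each gene and line, with 95% counting intervals, a solid line at 1 and dashed lines at 1.5-fold either way. HIF1A is above 1 in both lines (1.24 and 1.3), VEGFA in TE-1 cells (1.46) and NDRG3 in KYSE30 cells (1.33) come nearest the upper dashed line, and CA9 has no ratio in KYSE30 cells.

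**Figure D3:**
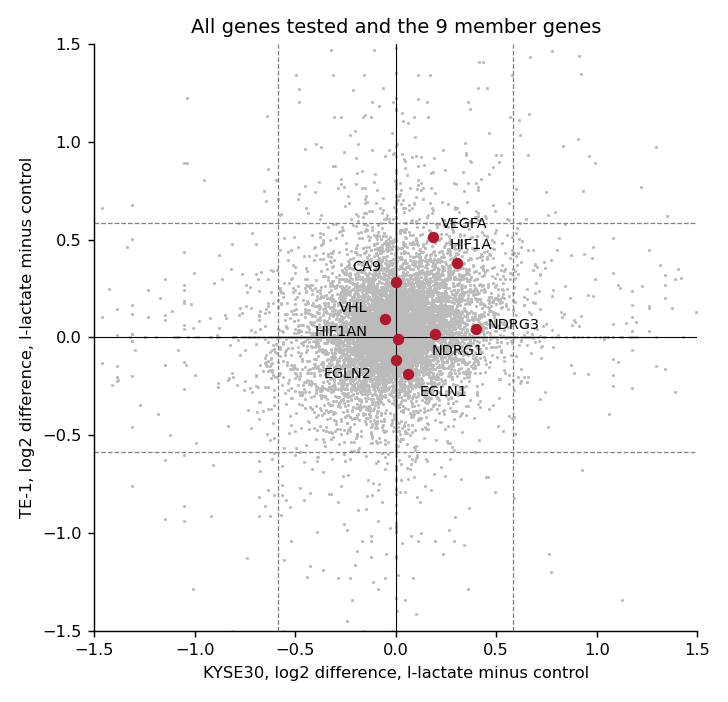
l-lactate minus control in log2(TPM + 1) for KYSE30 cells (horizontal axis) and TE-1 cells (vertical axis) for the 10472 genes tested (grey) and the 9 member genes (red), with dashed lines at 1.5-fold; 203 genes lie outside the axes. HIF1A (0.31 and 0.38) and VEGFA (0.19 and 0.51) sit in the upper right part inside the dashed lines, and CA9, not listed in KYSE30 cells, is drawn at 0 on the horizontal axis.

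Where a gene had more than 1 PAC, the share of its tags at each end was compared next. HIF1AN differed in its ends beyond counting error while its summed level did not. With l-lactate a larger share of its transcripts stopped at the proximal PAC and a smaller share at the middle PAC, in both lines. VHL and EGLN1 kept their shares within counting error, VEGFA differed between lines in what was listed, and NDRG3 had a smaller distal share with l-lactate in TE-1 cells.

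The proximal PAC of HIF1AN took 17.9% of its tags in the KYSE30 control (95% Wilson interval 13.9 to 22.7, 52 of 291 tags) and 26.9% with l-lactate (22.0 to 32.3, 76 of 283 tags). In TE-1 cells it took 11.8% in the control (8.03 to 16.9, 24 of 204 tags) and 23.0% with l-lactate (17.3 to 30, 38 of 165 tags). In both lines the l-lactate share was the higher, by 8.99 percentage points in KYSE30 cells (2.17 to 15.7) and 11.3 in TE-1 cells (3.54 to 19.2).

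The middle PAC of HIF1AN went the other way, from 73.2% to 64.0% in KYSE30 cells, a difference of -9.24 points (-16.7 to -1.64). In TE-1 cells it went from 78.9% to 65.5%, a difference of -13.5 points (-22.5 to -4.31). The distal PAC stayed between 8.93% and 11.5% in all 4 libraries. In TPM the proximal PAC went from 7 to 10.6 in KYSE30 cells, or 1.51-fold (1.05 to 2.2), while TE-1 cells showed 2.31 and 4.49, or 1.94-fold (1.14 to 3.39). Over PACs listed in all 4 libraries, in genes with more than 1 of them, 11.2% of 5169 changed their share by 5 points or more the same way in both lines. Of the 7 such PACs of the member genes 2 did, both of HIF1AN, and since shares of a gene sum to 100% these are not separate results. The intervals compare single libraries and do not measure the spread between cultures.

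The share of the most distal PAC was called over PACs that reached 5 TPM in at least 1 of the libraries compared. Only genes with 2 or more such PACs were considered, 1972 in KYSE30 and 2006 in TE-1 cells. Of these, 9.94% in KYSE30 and 11.9% in TE-1 cells changed by 10 points or more on l-lactate treatment. None of the 2 member genes with enough tags in KYSE30 cells (EGLN1 and HIF1AN) did so, nor any of the 4 in TE-1 cells (EGLN1, NDRG3, VEGFA and VHL). HIF1AN came nearest. Its last PAC to reach 5 TPM in KYSE30 cells is the middle one, whose share of the proximal and middle PACs went from 80.4% to 70.4%, a difference of -9.95 points that missed the threshold by a narrow margin. In TE-1 cells its proximal PAC stayed under 5 TPM, so HIF1AN was not among the genes considered there.

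NDRG3 in TE-1 cells was next, at -9.61 points over its middle and distal PACs. Over all its PACs the distal one held 100% of listed tags in the KYSE30 control and 96.8% with l-lactate, and 81.7% (78.2 to 84.7) in the TE-1 control and 72.3% (68.0 to 76.2) with l-lactate, a difference of -9.38 points in TE-1 cells (-14.6 to -4.16). The middle PAC went from 9.91% to 18.6% of tags there, and the intronic PAC from 8.44% to 9.17%. The middle PAC held 54 tags, all at its dominant position, in the TE-1 control, and 85 tags with l-lactate, of which 47 were at that position and 38 (4.49 TPM) elsewhere within its 235 nt. A position standing alone is listed only from 3.08 TPM in the control. Counting the dominant position of the middle PAC alone, the distal share was 81.7% in the control and 78.8% (74.6 to 82.4) with l-lactate, intervals that overlap, so the size of the NDRG3 difference depends on a position that the control may hold without listing it.

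Between lines, 2379 genes had 2 or more PACs that reached 5 TPM. Of these, 25.0% differed by 10 points or more in the share of the most distal PAC, the same way with and without l-lactate. Of the 5 member genes with enough tags, NDRG3 and VEGFA did so. For NDRG3 the call was made on -10.8 points in controls and -20.4 with l-lactate, over its middle and distal PACs. Over all its PACs the distal share was 18.3 points lower in TE-1 than in KYSE30 controls (interval of the difference -21.8 to -15.1) and 24.5 points lower with l-lactate (-29 to -20). The middle PAC was not listed in KYSE30 cells. There 1 position just under the limit would hold 7.3% of the tags in the control and 5.54% with l-lactate. Since this PAC spans 235 nt, more than 1 position may have gone unlisted, and these shares are not upper bounds. At that limit the NDRG3 call would be lost in controls. The intronic PAC was listed with 12 tags (1.67 TPM) in KYSE30 cells given l-lactate and with 46 and 42 tags in TE-1 cells.

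The proximal PAC of VEGFA was listed only in TE-1 cells, with 38.1% of its tags in the control (30.8 to 45.9, 59 of 155 tags) and 38.0% with l-lactate (31.3 to 45.2, 70 of 184 tags). Both ends of VEGFA were 1.46-fold their control with l-lactate in TE-1 cells (1.02 to 2.1 for the proximal and 1.1 to 1.93 for the distal PAC), so the split between them differed by -0.021 points (-10.3 to 10.2). In KYSE30 cells the proximal PAC may have held up to 43.4% of VEGFA tags in the control and 39.3% with l-lactate without being listed. At this depth a line difference in the ends of VEGFA therefore cannot be told from the listing limit.

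EGLN1 sent 89.3%, 89.9%, 91.8% and 91.4% of its tags to the distal PAC (KYSE30 control, KYSE30 l-lactate, TE-1 control, TE-1 l-lactate). The proximal PAC is a single position 79 nt past the stop codon, with the A-rich stretch described above, and held 5.71 to 10.6 TPM. VHL sent 84.9%, 84.5%, 81.9% and 79.9% to its distal PAC in the same order. For both genes every difference between libraries had an interval that included 0, the widest being -8.65 to 7.64 points for VHL with l-lactate against control in KYSE30 cells.

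**Figure D4:**
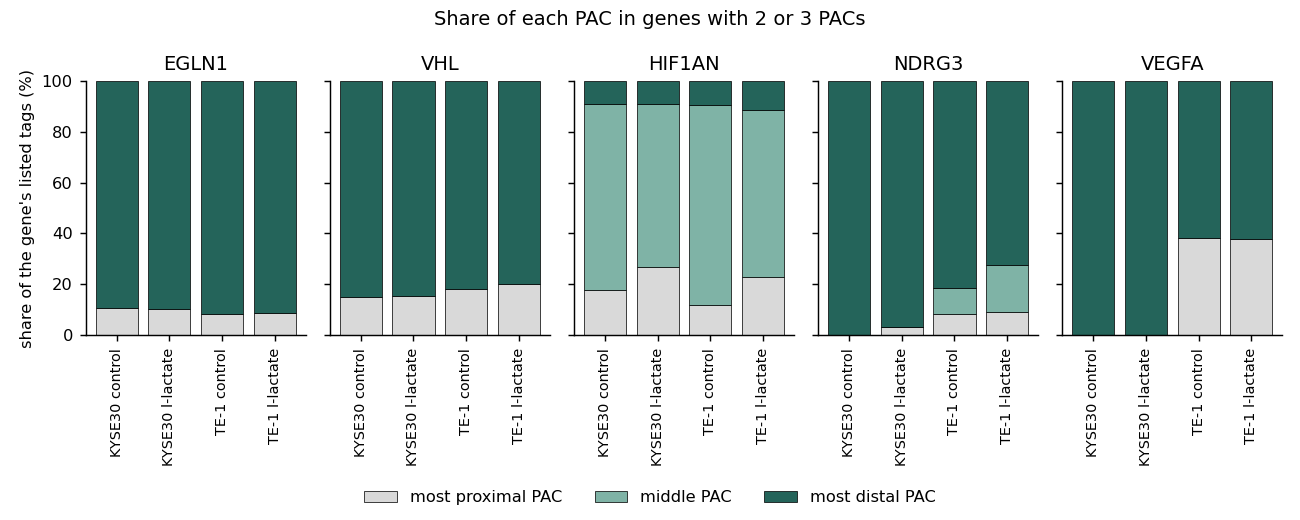
Share of listed tags (per cent, bars from 0 to 100) at each PAC of the 5 genes with 2 or 3 PACs, 1 bar per library, from the most proximal (light) to the most distal (dark). The proximal part of the HIF1AN bars is larger with l-lactate in both lines (17.9% to 26.9% and 11.8% to 23.0%), and the proximal part of VEGFA (38.1% and 38.0%) and the middle part of NDRG3 appear in TE-1 cells alone.

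Within a PAC the dominant site is the position with most tags. It moved past 24 nt with l-lactate in 1.43% of KYSE30 PACs above 5 TPM and 1.24% of TE-1 PACs. It did so in 0 of 9 and 0 of 13 such PACs of the member genes. Of these, only VHL distal (80 nt wide) and, in TE-1 cells, NDRG3 middle (235 nt) are wide enough for such a move. For the rest the width of the PAC fixed the outcome, so these counts are not set against the shares over all PACs. The middle PAC of HIF1AN has a pair of positions 7 nt apart with nearly equal tags. Its dominant position was 100550006 in the KYSE30 control, with 48.8% of the tags of the PAC (42.2 to 55.5), and 100549999 in the other 3 libraries, with 49.1% to 49.7%, so the change of 7 nt in KYSE30 cells is within counting error. For VEGFA distal the dominant positions in TE-1 cells lay 5 nt apart. They were 43786485 in the control, with 50% of tags (40.2 to 59.8), and 43786480 with l-lactate, with 60.5% (51.4 to 69.0). These shares are of different positions and their intervals overlap. Whether the change exceeds counting error was not tested. HIF1A kept the same position in all 4 libraries, with 79.5% to 82.7% of its tags there, and so did EGLN2 (84.0% to 86.9%) and NDRG1 (81.9% to 86.0%). VHL distal was spread over 80 nt, with 50.3% to 58.5% of its tags at the dominant site.

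The other genes of the pathway were read from 5 lists of 83 genes, of which 66 were measured. In TE-1 against KYSE30 cells 25 were higher, 21 lower and 20 did not pass the limma test, close to the shares over all genes, and the median log2 difference was 0.05 beside -0.02 over all genes. The limma test over both lines called none with l-lactate. By ratios within a line, 2 were higher and 2 lower by 1.5-fold or more in KYSE30 cells, and 1 was higher and 1 lower in TE-1 cells. In KYSE30 cells those higher were TFRC, the transferrin receptor, at 245 and 449 TPM, and PDK1, a kinase that restrains pyruvate dehydrogenase, at 3.1 and 5.58 TPM, both named after their values were seen. In TE-1 cells TFRC was also higher with l-lactate, at 286 and 384 TPM, or 1.34-fold (1.28 to 1.41). PDK1 was 1.3-fold its control there (0.951 to 1.79). With values not listed counted as 0, the other calls were SLC2A3, lower in both lines, and CITED2, lower in KYSE30 and higher in TE-1 cells. Of these 4 values 3 rest on a level under 2 TPM or one not listed. For SLC2A3 in KYSE30 cells and CITED2 in TE-1 cells, 1 library lists no value, so the direction there is not known.

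The counts per list are to be read against the shares over all genes, 36.7% higher in TE-1 cells and 37.8% lower. Among HIF targets of glycolysis and pH control, 13 of 20 measured genes were higher in TE-1 cells, 4 lower and 3 not past the test, with a median log2 difference of 0.57. Of the other HIF targets 7 were higher, 5 lower and 8 not past it among 20 measured (median -0.01). HIF subunits and cofactors had 1 higher, 5 lower and 2 not past it among 8 (median -0.39), genes of HIF turnover 3 higher, 5 lower and 5 not past it among 13 (median -0.10), and lactate-sensing and NDRG genes 1 higher, 2 lower and 2 not past it among 5 (median -0.14). NDRG2, NDRG4 and HCAR1, the lactate receptor, are among the 17 not measured.

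With values that were not listed counted as 0, pathway genes past 4-fold between lines in both conditions included the following 5. For ALDOC and CA12 this rests on that 0. A KYSE30 position just under the listing limit (3.10 TPM in the control, 3.07 TPM with l-lactate) would bring both below 4-fold. SLC2A3, a glucose transporter, held 1.21 TPM in the KYSE30 control, was not listed there with l-lactate, and held 34.4 and 22.0 TPM in TE-1 cells. ENO2, the neuronal enolase, was not listed in KYSE30 cells and held 30.2 and 27.2 TPM in TE-1 cells.

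ALDOC (9.04 and 7.91 TPM), a brain-type aldolase, CA12 (6.64 and 8.38 TPM), a carbonic anhydrase of the same membrane class as CA9, and PLIN2 (12.9 and 16.2 TPM), a lipid droplet coat protein, were likewise listed in TE-1 cells only. CA9 shared this pattern. With l-lactate SLC2A3 was 0.638-fold its control in TE-1 cells (0.531 to 0.763), and it has no ratio in KYSE30 cells, where the value that was not listed may have lain anywhere under 3.07 TPM.

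A pair of further genes was chosen after their values were seen. EPAS1, which encodes the alpha subunit of HIF-2, measured 160 and 189 TPM in KYSE30 cells and 42.2 and 56.6 TPM in TE-1 cells, -1.81 ± 0.09 on the log2 scale (SE, limma adjusted p = 1.04e-07). Like HIF1A it was lower in both TE-1 libraries than in both KYSE30 libraries, and it was 1.18-fold (1.09 to 1.28) and 1.34-fold (1.17 to 1.53) its control with l-lactate, with a limma adjusted p = 0.366. LDHA, the enzyme that makes lactate from pyruvate, measured 1740 and 2120 TPM in KYSE30 cells and 3530 and 3640 TPM in TE-1 cells, a line difference of 0.90 ± 0.07 (SE, limma adjusted p = 2.09e-06).

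**Figure D5:**
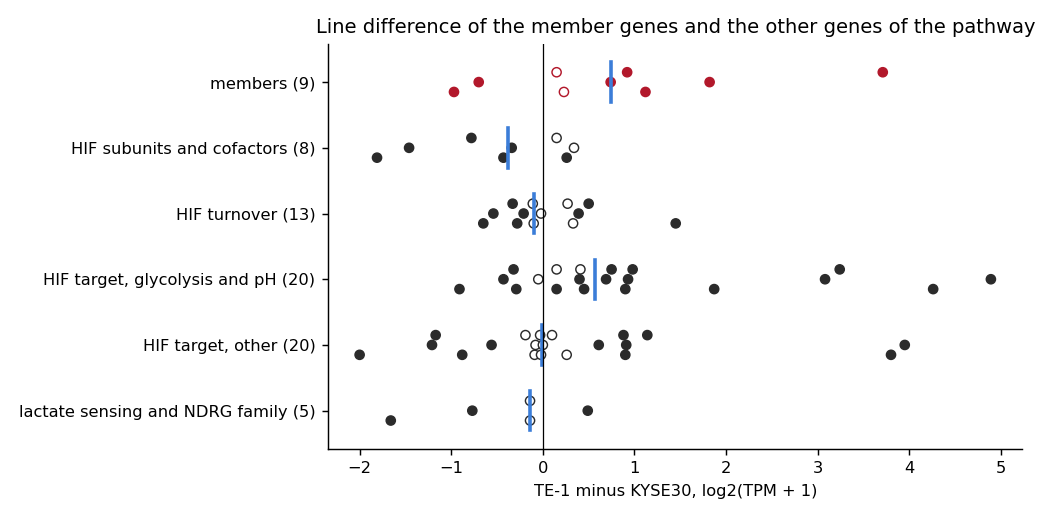
Difference in log2(TPM + 1) between TE-1 and KYSE30 cells for the 9 member genes (red) and the 66 measured pathway genes by list, with filled points at a limma adjusted p of at most 0.05 and a blue bar at the median. Glycolysis and pH targets lie mostly to the right (median 0.57, 13 of 20 higher in TE-1 cells), and HIF subunits and cofactors mostly to the left (median -0.39). Over all genes 36.7% were higher in TE-1 cells and 37.8% lower.

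The genes whose pattern over the 4 libraries was nearest to the 3 members with the largest line difference were sought by the largest distance between their centred log2(TPM + 1) values. For CA9 these were STOM (0.11), a membrane protein, and ATP1B1 (0.13), a subunit of the sodium pump, among 7015 candidates. The CA9 pattern takes its KYSE30 values as 0, so its size and these neighbours are set by the pseudocount of 1, and the fitted line difference of CA9 was 4.66 with a pseudocount of 0.5 and 1.78 with 5. For VEGFA they were CEBPB (0.09), a transcription factor, and CDC42EP4 (0.09). For EGLN1 they were TFAP4 (0.03) and TNFAIP1 (0.04), and 288 genes lay within 0.2 of EGLN1, 20 of VEGFA and 10 of CA9. These are distances over 4 values that share a library depth, and are a description.

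The core HIF response element ACGTG was sought on both strands, where CACGT is its reverse complement and the 2 can overlap, in the RefSeq promoter table (GRCh38.p14), which runs from 250 bases before to 50 after a gene start. Among the 10 genes 6 had a promoter in the table, and 3 of them, EGLN1, EGLN2 and CA9, had a match, beside 24.9% of 27305 genes. A match is shown because the members are read as parts of one response. Each is given on the strand of the gene with the motif in capitals.
EGLN1, chr1:231422286-231422310: gccgtggtgtACGTGcagagcgcgc
EGLN2, chr19:40799133-40799157: gggcgcggtcACGTGcccaccgggc
CA9, chr9:35673900-35673924: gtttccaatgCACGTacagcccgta
The matches begin 13, 48 and 18 bases before the start in the order shown, and EGLN2 also matches on the other strand 1 base earlier. HIF1A, EGLN3 and HIF1AN had none of these letters in their windows. Of the 3 genes with a match, EGLN1 and CA9 were higher in TE-1 cells and EGLN2 did not pass the test. None moved by 1.5-fold with l-lactate, where CA9 has a ratio in TE-1 cells only. VHL, VEGFA and NDRG1, also higher in TE-1 cells, had no promoter in the table. A link between the motif and the level was not tested.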

How the data were processed

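PAS-seq was measured in 4 libraries. The authors trimmed reads, aligned them to GRCh38 with HISAT2, called poly(A) sites with CAGEr, removed sites under TPM 1, joined sites within 24 nt into PACs, removed single-site PACs under TPM 3 and joined PACs within 500 nt further. The deposited values are RPM (TPM in the words of the study), tags as a proportion of the library total, for each PAC and for its dominant site, with no length term. Versions of HISAT2 and CAGEr are not given in the sources used here.

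PACs were joined across libraries by cluster number and placed on GENCODE 44 by dominant site, with up to 24 nt past a gene end allowed. A PAC not listed in a library counted as 0. Genes with at least 5 TPM in at least 1 library were tested with limma 3.58.1 in R 4.3.3 on log2(TPM + 1) with line and treatment as terms, a trend of the prior variance and Benjamini-Hochberg adjustment. Within a line only ratios were taken, with exact binomial counting intervals, Poisson intervals on levels and Wilson intervals on shares, all at 95% and covering counting error only. Intervals on levels rest on whole tags worked out from TPM steps, and 100.0% of values came out whole within 0.1 tag. The precision of a value rests on the tags behind it. Differences of shares carry a Newcombe interval. Scripts were tested on simulated data. Alternatives changed the pseudocount, scaling, filter, PAC placement, share and distance thresholds.

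The members and gene lists were chosen with earlier results of these data known. Pathway genes were named when past 4-fold between lines in both conditions or past 1.5-fold with l-lactate the same way in both lines, and 1 gene that met this rule is not reported here. The 2 genes nearest in pattern were named for each of the 3 members with the largest line difference, among genes of 20 TPM or more. Tables were handled in pandas 2.3.3 under Python 3.11.15, intervals came from SciPy 1.17.1 and NumPy 2.4.6, sequences were read through pysam 0.24.0, and plots were drawn in matplotlib 3.10.9.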

Additional observations from a re-analysis of the deposited data

How the results depend on the processing

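Every member gene kept the direction of its line difference and its side of the limma threshold under the alternatives run. A pseudocount of 5 called HIF1A higher with l-lactate (log2 difference 0.33, adjusted p = 0.0037), so 1 member was called where the other settings called 0, and over all genes it called 122 higher and 68 lower with l-lactate, where 3 and 2 were called with trimmed-mean scaling and 2 higher with 3′ UTR PACs alone. Genes past 1.5-fold in KYSE30 and TE-1 cells numbered 113 and 123 higher and 91 and 99 lower with that pseudocount, and 404 higher and 475 lower in KYSE30 and 372 lower in TE-1 cells with no filter. The distal share was called in 540 genes in KYSE30 and 559 in TE-1 cells from PACs of 1 TPM, in 75 and 110 from PACs of 10 TPM (335 between lines, with 1 member), and in 604 and 705 from 5 points (1028 between lines), where 1 member was called in each line, HIF1AN in KYSE30 and NDRG3 in TE-1 cells. With a change of 10 points in each line, an alternative added after the data were seen, 101 PACs and 0 of the members (HIF1AN then misses it in KYSE30 cells) changed share the same way in both lines. Dominant sites moved by any distance in 546 PACs in KYSE30 and 486 in TE-1 cells, 1 of them a member in each, and the midpoint of the quantile positions moved in 212 in TE-1 cells. A count test on whole tags was not run. The limma fit already pairs the l-lactate and control libraries of a line, as line is a term, and the labels give no replicate number for a further block. Leaving out a library leaves no residual degree of freedom, so no test without one could be had.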
